A study of Mus musculus with 6 samples.

Results

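The genes described here mark the cells of blood vessels and of the brain's coverings in newborn mouse striatum. They are 36 genes, 16 of endothelial cells, 10 of mural cells and 10 of fibroblasts, out of 47062 genes in the deposited table. They were taken by symbol from lists of known cell markers, and each matched 1 row of the table. The tissue was striatum with the subventricular zone, dissected at postnatal day 0 from littermates on a mixed background of C57BL/6J, 129S6 and CD1. All animals carried floxed alleles of Sp9, a zinc finger transcription factor gene (Sp9Flox/Flox). The 3 control libraries came from animals with those alleles alone and the 3 mutant libraries from Drd2-Cre; Sp9Flox/Flox animals, in which Cre is driven by regulatory sequence of the dopamine receptor gene Drd2. Drd2 marks striatopallidal projection neurons and is not a marker of vessel cells. No group carried Drd2-Cre without the floxed alleles, so the effects of Cre and of the deletion cannot be told apart. Whether each library is 1 animal is not in the labels, and the tests therefore speak only of the spread among these 6 libraries.

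Brain capillaries are tubes of endothelial cells joined by tight junctions, which form the blood-brain barrier together with transporters that move glucose and lipids and pump out drugs. Mural cells wrap the outside of these tubes: pericytes on capillaries and smooth muscle cells on arterioles. Neural cells guide vessel growth with secreted ligands such as Vegfa, Angpt1 and the Wnt7 proteins, whose receptors lie on endothelial cells. Fibroblasts lie in the meninges and around larger vessels and make fibrillar collagens, so in a dissected striatum their RNA reflects how much of these coverings came along as well as vessels inside the tissue.

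Many endothelial genes are bound by factors of the ETS family, such as Erg and Fli1, whose core site can be written AGGAAG. In the 250 bases before the start, on either strand, this motif was found in 9 of 16 windows of endothelial genes (13 of the 16 genes have a window). It was in 0 of 7 windows of mural genes, in 2 of 11 of fibroblast genes and in 29.5% of all 32851 windows of the RefSeq table. These counts are a description of the letters. The windows of 3 endothelial genes are shown to let the regulatory sequence of a barrier gene (Cldn5) be read beside those of 2 growth factor receptors (Flt1, Tek). They are RefSeq sequences on GRCm38.p6, at chr16:18776597-18776846 on the plus strand for Cldn5, chr5:147726012-147726261 on the minus strand for Flt1 and chr4:94739039-94739288 on the plus strand for Tek. Capitals mark the motif, which occurs 2 times in the Flt1 window and not in the other windows shown.
Cldn5: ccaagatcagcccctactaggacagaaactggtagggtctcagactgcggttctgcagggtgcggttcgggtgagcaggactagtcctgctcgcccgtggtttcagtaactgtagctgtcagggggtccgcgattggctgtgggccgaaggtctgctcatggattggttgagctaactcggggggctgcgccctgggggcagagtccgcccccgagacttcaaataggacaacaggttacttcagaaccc
Flt1: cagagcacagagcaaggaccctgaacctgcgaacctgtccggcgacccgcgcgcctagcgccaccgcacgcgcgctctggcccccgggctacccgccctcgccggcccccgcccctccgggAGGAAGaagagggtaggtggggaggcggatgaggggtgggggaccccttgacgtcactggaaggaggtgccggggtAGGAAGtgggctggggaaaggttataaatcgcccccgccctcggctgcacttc
Tek: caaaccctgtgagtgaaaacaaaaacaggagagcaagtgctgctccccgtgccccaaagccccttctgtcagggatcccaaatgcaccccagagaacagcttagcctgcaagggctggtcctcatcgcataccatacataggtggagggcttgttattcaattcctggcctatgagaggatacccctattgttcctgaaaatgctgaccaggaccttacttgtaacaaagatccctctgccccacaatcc

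Depth was similar across libraries, from 16237067 to 19457784 fragments when the deposited count columns are divided by their smallest step. The deleted gene Sp9 had an FPKM (fragments scaled by transcript length and by mapped fragments) of 17.3 to 20.1 in the controls and 7.93 to 9.67 in the mutants (log2 difference -1.08, 95% interval -1.31 to -0.85, adjusted p = 0.0567 with limma). Genes that define striatal projection neurons were abundant, with Ppp1r1b at 165 to 216 and Bcl11b at 163 to 188. Of the markers of other cells, Folr1 of the choroid plexus and the embryonic globin gene Hbb-y were listed at 0 in every library, whereas Ttr, another choroid plexus gene, was detected in all 6 and is given beside the fibroblast genes. The 7 genes of cortical glutamatergic neurons were uneven, their FPKM adding up to 19.7, 22.2 and 7.17 in the 3 controls in order and 34.5, 8.20 and 54.5 in the 3 mutants. The 8 genes of red blood cells summed to 403 to 647 in the controls and 542 to 958 in the mutants, with mutant replicate 2 highest.

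Vessel genes were a small part of the RNA. The 16 endothelial genes took 0.0205 to 0.0247% of the counts of a library, the 10 mural genes 0.0138 to 0.0160% and the 10 fibroblast genes 0.0110 to 0.0146%. The defining markers of endothelial cells and pericytes were present in every library, whereas Acta2 and Myh11 of smooth muscle and most fibroblast markers were low. The median of the mean FPKM was 3.86 for endothelial genes, 2.28 for mural genes and 0.639 for fibroblast genes. All 16 endothelial genes had a mean FPKM above 1, and 3 mural and 7 fibroblast genes lay below 1. FPKM is per length, so these levels can be compared roughly between genes. The comparison is limited because FPKM and fragment numbers diverged in some genes, such as Egfl7 and Tek.

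**Figure D1:**
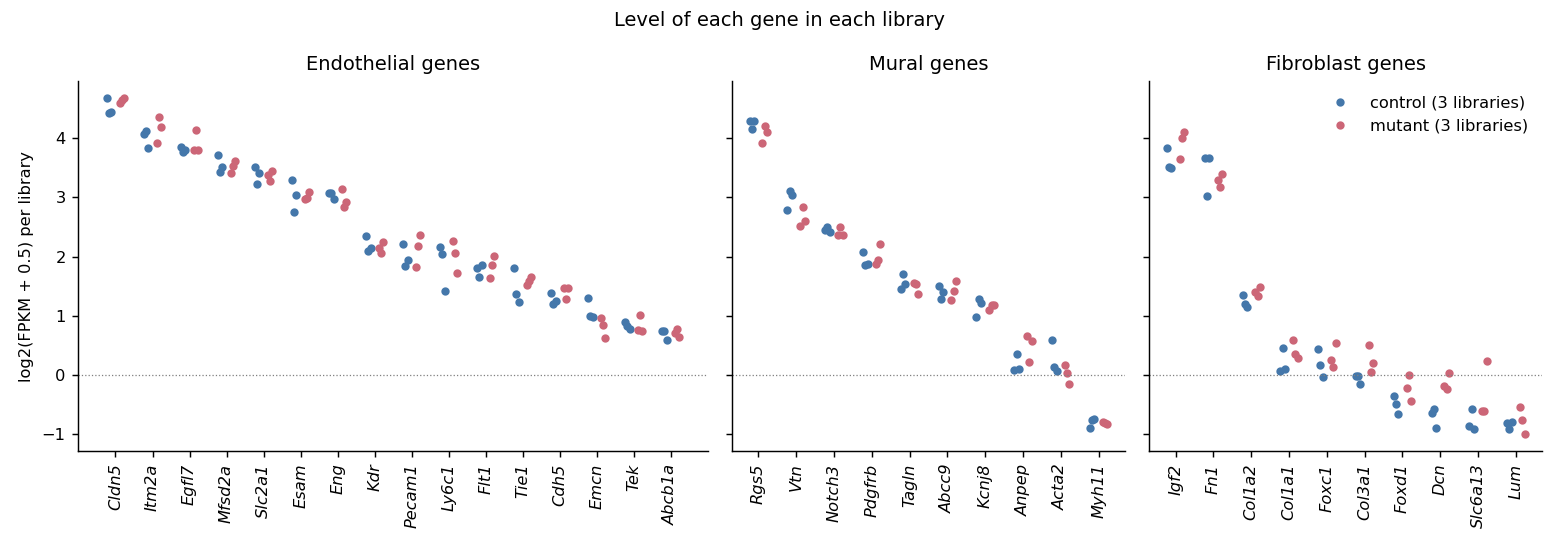
Level of each of the 36 genes on the log2(FPKM + 0.5) scale (vertical axis), 1 point per library, 3 control and 3 mutant, ordered within each class by mean level. Endothelial genes run from Cldn5 (mean FPKM 23.4) to Abcb1a (1.13), mural genes from Rgs5 (17.5) to Myh11 (0.0718) and fibroblast genes from Igf2 (13.3) to Lum (0.0761).

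The comparison of mutant with control asks whether these genes differed in level when Sp9 was deleted from Drd2-expressing cells. Among the 31 of the 36 genes that passed a filter on mean FPKM of at least 0.5, none passed an adjusted p of 0.05 (limma on log2(FPKM + 0.5), adjusted over all 16666 genes tested). The background was low, with 0.06% of all genes past that threshold (0.036% higher and 0.024% lower in the mutants), and the members' adjusted p was 0.858 or more. At an unadjusted p under 0.05 there was 1 gene, Vtn, which was lower, or 3.23% of those tested against 5.65% of all genes (2.65% higher, 2.99% lower). Control and mutant libraries did not overlap in 2 of the 31, Emcn and Col3a1, or 6.45% against 11.4% of all genes (5.33% higher, 6.05% lower). Both shares lay below the background. Of all genes, 0.342% differed 2-fold or more at an unadjusted p up to 0.05, and none of the members tested did. All values come from bulk tissue, in which fewer cells of a type and less RNA per cell cannot be told apart.

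The intervals show how large a difference these libraries leave possible on the log2(FPKM + 0.5) scale, which shrinks differences of low genes. On that scale the 95% intervals of all 31 genes tested lay within a 2-fold change in either direction. Those of 21 lay within a 1.5-fold change. These 21 were 14 of the 16 endothelial genes, 6 of the 9 mural genes tested and 1 of the 6 fibroblast genes tested. For low genes the intervals do not bound the fold change in FPKM itself. The log2 difference of Col3a1 was 0.32 here, 0.51 with 0.1 added in place of 0.5 and 0.73 on scaled counts. The median log2 difference was 0.041 for the endothelial genes and -0.045 for the 9 mural genes tested. It was 0.19 for the 6 fibroblast genes tested, or 0.24 over all 10. Over all 16666 genes tested the median was -0.00020.

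**Figure D2:**
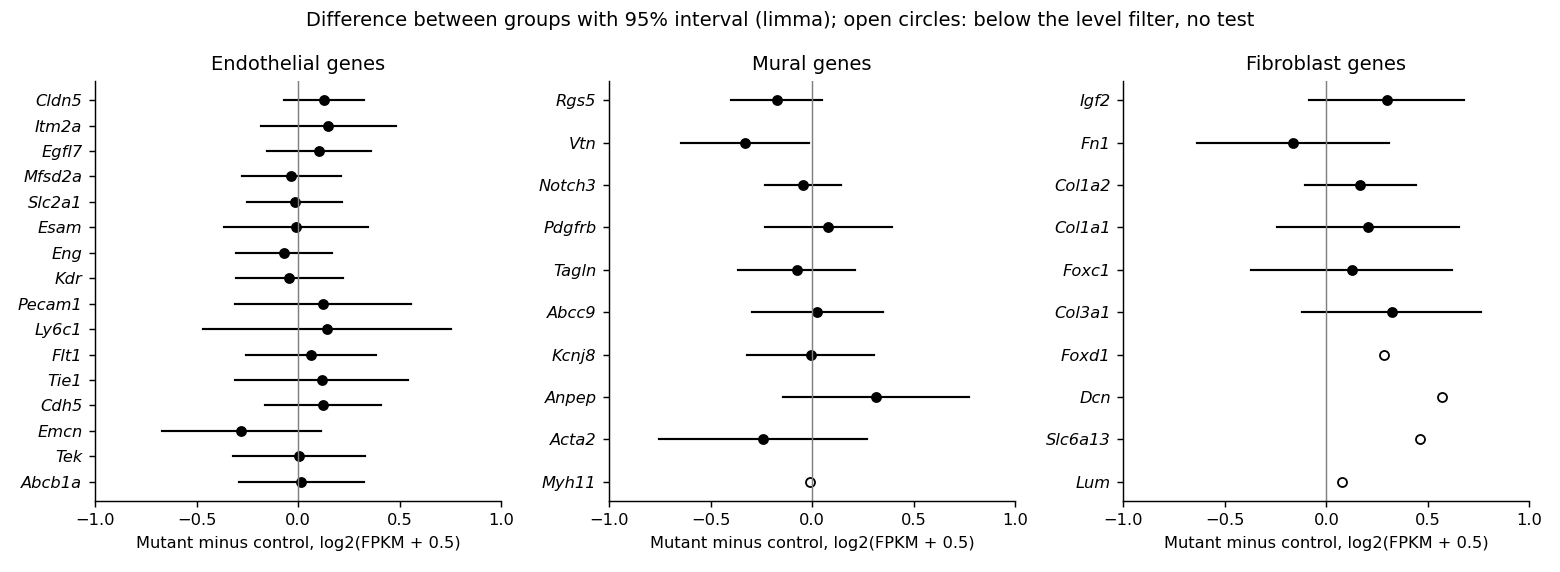
Difference between group means on the log2(FPKM + 0.5) scale (horizontal axis) for each gene, with the 95% interval of the limma fit. Filled circles are the 31 genes tested, and open circles are the 5 genes below the filter, which have no interval; among the filled circles the interval of Vtn (-0.64 to -0.02) alone lies on 1 side of 0.

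Cldn5 encodes the main claudin of endothelial tight junctions and was the most abundant endothelial gene (ENSMUSG00000041378; GRCm38 chromosome 16, 18776847 to 18778262). In order of replicate, the controls had 25.1, 20.98 and 21.1 and the mutants 23.7, 24.5 and 25.2 (FPKM). Control replicate 1 lay among the mutants, so the groups overlapped, with means of 22.4 ± 2.32 and 24.5 ± 0.721 (SD, n = 3 each). The log2 difference was 0.13, with a 95% interval of -0.07 to 0.32 and an adjusted p of 0.888 with limma. Without control replicate 1 it was 0.21, with an unadjusted p of 0.00833 and an adjusted p of 0.675. In the other fits with 1 library left out the unadjusted p was 0.184 to 0.368 (limma).

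The adhesion genes of endothelial cells lay close to each other in both groups. Pecam1, an adhesion protein of endothelial junctions, had 3.10 to 4.12 in the controls and 3.04 to 4.65 in the mutants. Cdh5, the cadherin of these junctions, had 1.81 to 2.12 and 1.92 to 2.28. Esam, another junction protein, had 6.24 to 9.26 in the controls and 7.33 to 7.997 in the mutants. In each of these genes the ranges overlapped, and Esam spread more widely among the controls than between the groups.

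The transporters that characterise the barrier had differences near 0. The glucose transporter gene Slc2a1, which astrocytes and red blood cell precursors also express, had means of 9.96 ± 1.03 and 9.82 ± 0.645 (SD, n = 3 each; log2 difference -0.02, 95% interval -0.25 to 0.22). Mfsd2a, which carries lipids and keeps vesicle transport across the endothelium low, had 11.2 ± 1.21 and 11.0 ± 0.834 (-0.03, -0.28 to 0.21). Abcb1a, a drug efflux pump, had 1.12 ± 0.0984 and 1.13 ± 0.0759 (0.02, -0.29 to 0.32). For all 3 the interval excludes a 1.5-fold change. Fragments of Abcb1a and of its close relative Abcb1b, and those of Ly6c1 and Ly6c2, could have been split in counting.

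The receptors of vessel growth factors were likewise similar between groups. Kdr, the main signalling receptor for Vegfa, had an FPKM of 4.59, 3.75 and 3.92 in the controls and 3.90, 3.65 and 4.26 in the mutants. Flt1, which binds Vegfa and limits its action, had 2.98, 2.64 and 3.14 against 2.62, 3.14 and 3.52. Their log2 differences were -0.04 (95% interval -0.31 to 0.22) and 0.07 (-0.25 to 0.39). Tie1 and Tek, the receptor pair of the angiopoietin system, had differences of 0.12 and 0.0046. Eng, a co-receptor for ligands of the TGF-beta family, had 7.33 to 7.92 in the controls and 6.66 to 8.29 in the mutants.

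Emcn, a sialomucin of capillaries and veins, was the endothelial gene whose libraries did not overlap in FPKM. Its FPKM was 1.96, 1.49 and 1.48 in the controls and 1.46, 1.299 and 1.04 in the mutants. The gap between the lowest control and the highest mutant was small, and the libraries held only 27 to 49 fragments of Emcn each. The log2 difference was -0.28 (95% interval -0.67 to 0.11, unadjusted p = 0.131, limma). On scaled counts the groups overlapped, with control replicate 2 at 41.3 and mutant replicate 1 at 42.0 (log2 difference -0.37). Ly6c1, a surface protein of brain endothelium, had the widest interval of the class (-0.47 to 0.75), with 2.16 in control replicate 3 and 4.30 in mutant replicate 1. Itm2a, a membrane protein gene found in endothelial and other vessel cells, had 13.8 to 16.9 and 14.7 to 20.0.

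FPKM and fragment numbers diverged in Egfl7, which encodes a secreted endothelial protein, and in Tek. In mutant replicate 2 Egfl7 had the highest FPKM of the 6 libraries, 17.1 against 13.1 to 14.0 in the other 5, but its 178 fragments lay within the range of the others (144 to 188). On the deposited count columns the log2 difference of Egfl7 was -0.04, against 0.10 on FPKM. Tek had 117, 109 and 103 scaled counts in the controls and 101, 94.1 and 99.1 in the mutants, which do not overlap, while its FPKM overlapped (1.21 to 1.36 and 1.17 to 1.51). Its log2 difference was -0.16 on scaled counts (unadjusted p = 0.220, limma) and 0.0046 on FPKM. The share of all genes whose groups do not overlap on scaled counts was not computed. The cause of the divergence was not tested.

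Among pericyte genes, Vtn, which encodes the matrix protein vitronectin, had the smallest p of the 31 genes tested (ENSMUSG00000017344; GRCm38 chromosome 11, 78499091 to 78502324). Its FPKM was 6.44, 8.10 and 7.75 in the controls and 5.21, 6.66 and 5.55 in the mutants. Mutant replicate 2 lay above control replicate 1, so the groups overlapped. The means were 7.43 ± 0.875 and 5.81 ± 0.759 (SD, n = 3 each), a log2 difference of -0.33 ± 0.13 (SE; 95% interval -0.64 to -0.02; unadjusted p = 0.0425, adjusted p = 0.858, limma). The unadjusted p rose to between 0.108 and 0.124 when 1 library was left out, for controls 2 and 3 and for mutants 1 and 3. It was 0.0204 without the first control and 0.0197 without the second mutant.

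Rgs5, a regulator of G protein signalling that is the most abundant pericyte marker here, was also lower in estimate. It had 19.2, 17.3 and 19.1 in the controls and 14.6, 18.0 and 16.6 in the mutants, and mutant replicate 2 lay within the controls. The log2 difference was -0.17 (95% interval -0.40 to 0.05). Pdgfrb, the receptor through which endothelial Pdgfb recruits pericytes, had 3.12 to 3.71 and 3.18 to 4.14. Its estimate was above 0 (0.08, -0.23 to 0.39), so the pericyte markers did not share 1 direction. Notch3, a receptor on mural cells that responds to ligands of neighbouring cells, had 5.01 ± 0.156 and 4.84 ± 0.302 (SD, n = 3 each), with the narrowest interval of the class (-0.23 to 0.14).

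Kcnj8 and Abcc9 encode the pore and the regulatory subunit of a potassium channel of pericytes and lie side by side on chromosome 6 (GRCm38, 142564837 to 142571614 and 142587862 to 142702315). Kcnj8 had an FPKM of 1.47, 1.94 and 1.82 in the controls and 1.65, 1.76 and 1.76 in the mutants. Abcc9 had 2.35, 1.95 and 2.13 against 1.90, 2.16 and 2.52. Their log2 differences were -0.0070 and 0.03, and both intervals lay within a 1.5-fold change. Anpep, a peptidase of pericytes and fibroblasts, had 0.554 to 0.776 and 0.666 to 1.08, on 27 to 47 fragments per library.

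The smooth muscle genes differed in level. Acta2, the smooth muscle actin, had 1.01, 0.592 and 0.548 in the controls and 0.623, 0.529 and 0.404 in the mutants. Control replicate 1 stood apart from the other 5 libraries, with 30 fragments against 11 to 20. Tagln, an actin-binding protein of smooth muscle that overlaps Pcsk7, had 2.24 to 2.77 and 2.09 to 2.43, a level like that of the pericyte gene Abcc9. Myh11, the smooth muscle myosin, was below the filter, with 7 to 16 fragments per library (0.0400 to 0.0939 FPKM). At this depth a difference in Myh11 was not testable with the filter used.

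Estimates for the fibroblast genes were mostly above 0, but none passed the adjusted threshold. Only 6 of the 10 passed the level filter, and 5 of these 6 estimates were above 0, against 49.9% of all genes tested. The estimates of the 4 genes below the filter, which rest on 0 to 17 fragments per library, were also above 0. The share above 0 among all genes below the filter was not computed. Mean log2 values over all 10 genes were 0.67, 0.58 and 0.50 in control replicates 1 to 3 and 0.81, 0.75 and 0.88 in mutant replicates 1 to 3, so each mutant lay above each control. This mean gives the 4 genes below the filter full weight. Their log2 differences were 0.57 (Dcn), 0.46 (Slc6a13), 0.28 (Foxd1) and 0.08 (Lum), so the separation rests in part on genes near the floor. The summed FPKM, which Igf2 and Fn1 dominate, overlapped (23.0 to 30.5 and 27.2 to 32.8).

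Col3a1 encodes a fibrillar collagen (ENSMUSG00000026043; GRCm38 chromosome 1, 45311538 to 45349706). Its FPKM was 0.486, 0.484 and 0.397 in the controls and 0.917, 0.541 and 0.651 in the mutants, and the groups did not overlap. The log2 difference was 0.32 (95% interval -0.12 to 0.76, unadjusted p = 0.124, adjusted p = 0.888, limma). On scaled counts it had 36.9, 55.8 and 37.7 in the controls and 80.1, 61.1 and 74.9 in the mutants. There the log2 difference was 0.73, with an unadjusted p of 0.00803 and an adjusted p of 0.464 (limma). The added 0.5 shrinks a difference at this level. On scaled counts 2 of the 32 members tested, Col3a1 and Vtn, had an unadjusted p under 0.05, when 6.42% of all genes did (3.24% higher, 3.19% lower), and none passed the adjusted threshold, which 0.143% of all genes passed.

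The chains of the other main fibrillar collagen had smaller estimates. Col1a1 had 0.548, 0.869 and 0.577 against 1.01, 0.778 and 0.719, and control replicate 2 lay above 2 of the mutants. Col1a2 had 1.72 to 2.06 and 2.02 to 2.29, with a log2 difference of 0.17 (95% interval -0.11 to 0.44). In both genes the FPKM ranges overlapped. On scaled counts those of Col1a1 overlapped too, but Col1a2 had 115 to 144 in the controls and 146 to 172 in the mutants. There the log2 difference of Col1a2 was 0.24 (unadjusted p = 0.0935, adjusted p = 0.844, limma).

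Dcn and Lum, small proteoglycans that bind collagen, were near the limit of detection. Dcn had 4, 5 and 1 fragments in the controls and 12, 11 and 14 in the mutants, or an FPKM of 0.0378 to 0.171 and 0.344 to 0.519. The groups did not overlap, but the gene lay under the level filter with a mean FPKM of 0.265. With no filter its log2 difference was 0.57, with an unadjusted p of 0.00461 and an adjusted p of 0.680 (limma). Lum had 0 to 6 fragments per library. The members nearest the filter of 0.5 were Foxd1 (mean FPKM 0.288) below it and Col3a1 (0.580) above it.

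Igf2, an imprinted growth factor gene that vessels, meninges and choroid plexus express, had 13.8, 10.9 and 10.8 in the controls and 12.05, 15.5 and 16.7 in the mutants. Mutant replicate 1 lay between the controls, and the log2 difference was 0.30 (95% interval -0.08 to 0.68). Reads of the antisense gene Igf2os, which overlaps Igf2, cannot be told apart without strand. The unadjusted p of Igf2 was 0.0454 without control replicate 1 and 0.0227 without mutant replicate 1, with adjusted p of 0.801 and 0.959 (limma). In the other fits with 1 library left out the unadjusted p of Igf2 was 0.227 to 0.271 (limma). Slc6a13, a GABA and taurine transporter gene of meningeal cells, had 1 to 6 fragments in 5 libraries and 16 in mutant replicate 3.

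Foxc1 and Foxd1 encode forkhead factors of meningeal and perivascular cells. Foxc1 had 0.473 to 0.848 and 0.596 to 0.957, and Foxd1, below the filter, had 4 to 9 fragments in the controls and 7 to 17 in the mutants. Fn1, the fibronectin gene that endothelial cells also express, was the fibroblast gene with an estimate below 0. It had 12.2, 7.67 and 12.3 in the controls and 9.31, 8.57 and 9.99 in the mutants, so control replicate 2 lay under every mutant. Without that library the log2 difference of Fn1 went from -0.17 to -0.38, with an unadjusted p of 0.00681 and an adjusted p of 0.596 (limma). In the other fits with 1 library left out the unadjusted p of Fn1 was 0.389 to 0.791 (limma). On scaled counts control replicate 2 (1071) lay above mutant replicate 1 (1047), and the log2 difference was -0.06.

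**Figure D3:**
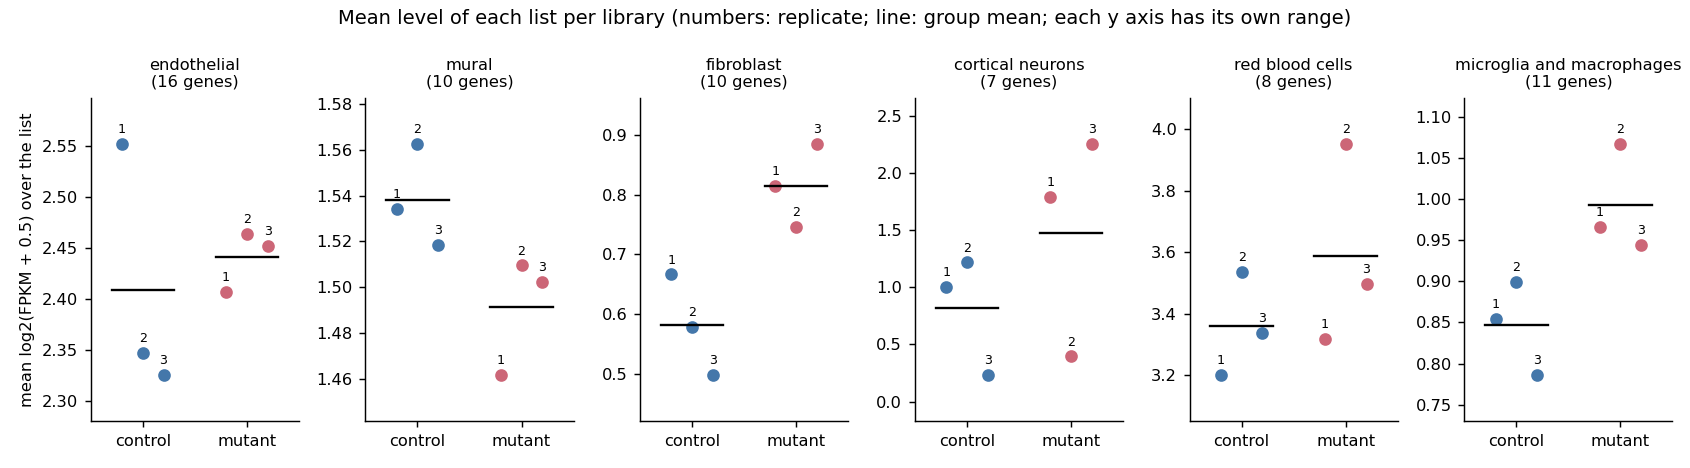
Mean log2(FPKM + 0.5) over each list (vertical axis, with its own range per panel) in the 3 control and 3 mutant libraries, labelled by replicate, with the group mean as a line. Means include genes below the level filter. The fibroblast list lies at 0.50 to 0.67 in the controls and 0.75 to 0.88 in the mutants, whereas the cortical list is high in mutant replicates 1 and 3 (1.79 and 2.25) and low in mutant replicate 2 (0.40).

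Markers of other cells moved with the fibroblast genes in some libraries. Cortical genes were highest in mutant replicates 1 and 3, where the mean of the fibroblast genes was also highest. In mutant replicate 2 the cortical mean, 0.40, lay within the control range (0.23 to 1.22), and the fibroblast mean, 0.75, still lay above each control. That fibroblast mean includes the genes below the level filter. The mean of the 11 genes of microglia and macrophages was 0.79 to 0.90 in the controls and 0.94 to 1.07 in the mutants. Ttr, a transport protein gene that marks the choroid plexus, had an FPKM of 0.118, 0.867 and 0.192 in the controls and 1.48, 1.04 and 1.54 in the mutants, on 2 to 27 fragments per library. Each mutant lay above each control, as for the fibroblast mean (log2 difference 1.14, 95% interval 0.29 to 1.99, unadjusted p = 0.0173, adjusted p = 0.795, limma). Clic6, the other choroid plexus gene tested, had 0.538 to 1.02 in the controls and 0.429 to 0.791 in the mutants. The summed FPKM of the 7 choroid plexus genes, Ttr included, was 1.58 to 2.59 in the controls and 2.66 to 2.71 in the mutants. Of these 7 genes only Ttr had groups that did not overlap. Their share of the scaled counts overlapped, at 0.00045 to 0.00066% in the controls and 0.00053 to 0.00059% in the mutants. Whether the amount of attached meninges, choroid plexus or cortex differed between dissections was not tested.

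The libraries also ranked unevenly within the lists. Control replicate 1 was the highest control in 13 of the 16 endothelial genes, when it was the highest control in 36.9% of all genes tested. It was also the highest control in 16 of 26 further endothelial genes and in 10 of 13 basement membrane genes. In the mural and fibroblast genes it was so in 4 of 10 and 5 of 10. The further mural, further fibroblast, and ligand and receptor lists had 7 of 14, 10 of 20 and 13 of 26. Mutant replicate 3 was the highest mutant in 9 of 16 endothelial and 15 of 26 further endothelial genes, against 33.0% of all genes tested, but in 2 of 10 mural genes. The endothelial mean was 2.55 in control replicate 1, 2.33 and 2.35 in the other controls and 2.41 to 2.46 in the mutants. For the mural genes the means were 1.52 to 1.56 in the controls and 1.46 to 1.51 in the mutants. These groups did not overlap, and they lay 0.05 apart. In the 14 further mural genes the groups overlapped (0.83 to 0.93 and 0.81 to 0.92), with a difference of 0.0123 in the other direction.

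**Figure D4:**
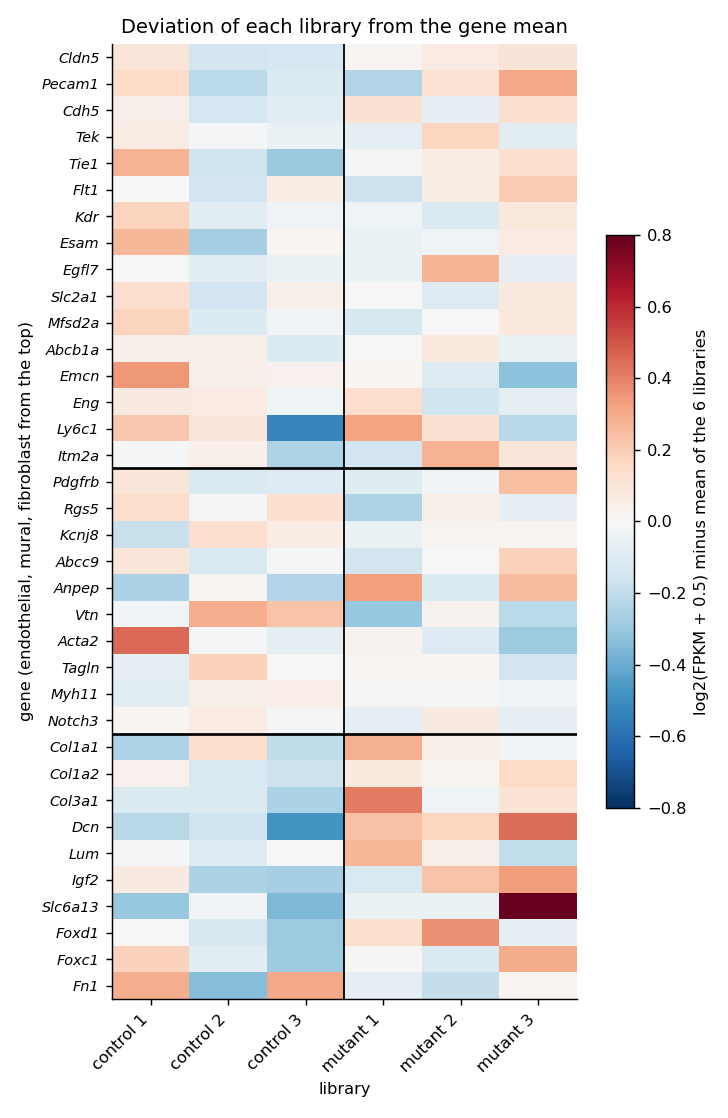
Deviation of each library (columns) from the gene's mean over the 6 libraries on the log2(FPKM + 0.5) scale (colour) for the 36 genes (rows), with lines between the classes. Control replicate 1 is above the mean in 13 of 16 endothelial genes, and the largest deviation among the fibroblast genes is that of Slc6a13 in mutant replicate 3.

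Further genes of the same cells were tested in the same fit. None of 25 further endothelial, 10 mural, 9 fibroblast, 26 ligand and receptor and 13 basement membrane genes tested passed the adjusted threshold with limma. At an unadjusted p under 0.05 there were 0, 0, 1, 2 and 0 genes, when 5.65% of all genes had one. Of the 25 further endothelial estimates 19 were above 0, against 49.9% of all genes, and in 4 genes (Sox18, Ptprb, Clec14a and Ocln) each mutant lay above each control, as in 5.33% of all genes. Among further endothelial genes the smallest p belonged to Ocln, a tight junction gene (1.06 ± 0.231 and 1.57 ± 0.244 FPKM), and Ptprb, a phosphatase that acts on Tek (1.49 ± 0.0200 and 1.77 ± 0.0747; SD, n = 3 each). In the mural list they belonged to Zic1, which neural cells also express, and Atp13a5, with log2 differences of 0.26 and -0.17. In the basement membrane list they belonged to Nid2 and Lamb1 (-0.19 and -0.15).

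Angpt1, the ligand that activates Tek, had the smallest p of these further genes. Its FPKM was 2.62, 2.498 and 2.53 in the controls and 3.997, 3.41 and 3.93 in the mutants. The groups did not overlap, and the log2 difference was 0.49 (95% interval 0.25 to 0.72, unadjusted p = 0.00249, adjusted p = 0.566, limma). On scaled counts the adjusted p was 0.0993. Its receptor Tek did not pass on either measure. Pgf, a ligand of Flt1, had 0.387 to 0.537 in the controls and 0.826 to 0.921 in the mutants, on 12 to 30 fragments per library (unadjusted p = 0.0185, adjusted p = 0.795, limma). Vegfa itself had 26.3 to 38.9 and 29.6 to 35.3.

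Col6a1, a collagen gene of the further fibroblast list, was lower in each mutant than in each control but did not pass. It had 31.6, 23.0 and 30.8 in the controls and 20.7, 17.9 and 22.3 in the mutants (log2 difference -0.47, 95% interval -0.83 to -0.10, adjusted p = 0.7996, limma). At a mean FPKM of 24.4 it was far more abundant than Col6a2, its partner chain, which had 0.854 to 1.31. Mgp, a matrix protein gene of fibroblasts, had 0.568 to 1.04 and 0.728 to 2.07. Of the 9 further fibroblast genes tested, 7 estimates were above 0, against 49.9% of all genes tested. The mean log2 value over all 20 listed was 0.17 to 0.22 in the controls and 0.24 to 0.36 in the mutants. That mean includes genes below the level filter. The summed FPKM of the 20 genes overlapped, at 41.9 to 51.7 and 41.1 to 45.9.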

How the data were processed

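RNA was measured by sequencing in 3 control and 3 mutant libraries. The authors deposited 1 table with an FPKM column and a count column per library, per the file headers. Per the submitters' processing notes, the tools were TopHat and Cufflinks 2.1.1 and the build GRCm38.p4. The sources used here give no annotation release, strand setting or handling of reads that map to several places. The deposited count columns are a signal and not raw counts: in each library 97.7 to 97.9% of entries over 0.01 were whole multiples of 1 step, to within 0.1, so they hold estimated fragments times a factor (scaled counts). Dividing by the step gave fragments. No test made for raw counts was run, and the scaled counts were fitted with limma on a log2 scale.

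Symbols and positions came from GENCODE M21 on GRCm38 (46483 of 47062 identifiers matched) and promoter windows from RefSeq (GRCm38.p6; 26 of the 36 members had 1 or more). limma 3.58.1 in R 4.3.3, with a variance trend and two-sided p-values adjusted by the Benjamini-Hochberg method at 0.05, was fitted to log2(FPKM + 0.5) where mean FPKM reached 0.5. Fold changes of low genes are understated on that scale. The script was tested on simulated data. The alternatives changed the pseudocount (0.1, 1), the filter (none, or mean FPKM from 1) or the scaling (quantile, median-ratio), or used a replicate block, robust limma, log2(scaled count + 1) at a mean of at least 10, Itm2a and Fn1 left out of their classes, and each library left out in turn. All 36 members may be named. From each further list, genes past the threshold or otherwise the 2 with the smallest p are named, and Vegfa, Col6a2, Sox18, Clec14a, Ppp1r1b, Bcl11b, Erg and Fli1 were named outside this rule, after their values were seen, as was Clic6. The members and lists were chosen with earlier results of these data known.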

Additional observations from a re-analysis of the deposited data

How the results depend on the processing

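The 31 members tested never passed an adjusted p of 0.05 in any of the 9 other fits or the 6 fits with 1 library left out; their smallest adjusted p was 0.464. Of 460 member values under these alternatives, 427 kept their direction and 33, in 14 genes, changed sign; the reported differences of these 14 lay between -0.07 and 0.14. With quantile normalization Abcb1a was -0.0212, Abcc9 -0.0151 and Tek -0.0295. On scaled counts Abcb1a was -0.0182, Egfl7 -0.0394, Tek -0.16, Eng 0.0262, Mfsd2a 0.0377 and Kcnj8 6e-04. With 1 library left out, Abcb1a ran from -0.0351 to 0.0481, Abcc9 from -0.0601 to 0.11, Egfl7 from -0.0088 to 0.16, Esam from -0.15 to 0.12, Flt1 from -0.0191 to 0.16, Kcnj8 from -0.0993 to 0.0569, Kdr from -0.0963 to 0.0327, Ly6c1 from -0.0871 to 0.29, Mfsd2a from -0.0946 to 0.0480, Pdgfrb from -0.0204 to 0.15, Slc2a1 from -0.0950 to 0.0473, Tek from -0.0813 to 0.0517 and Tie1 from -0.0031 to 0.29.

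The endothelial and fibroblast medians moved by less than the SD of the class mean between replicates (0.0907 and 0.0771). The endothelial median changed sign without control replicate 3. The mural median, -0.0454 as reported, moved by more than its SD (0.0241) with quantile normalization and in at least 1 fit that lacks a library. The mural median was -0.0795 with quantile normalization and -0.0917 to -0.0220 with 1 library left out; the endothelial median was -0.0038 to 0.10 and the fibroblast median 0.14 to 0.24. Members at an unadjusted p under 0.05 numbered 0 to 1 (endothelial), 0 to 2 (mural) and 0 to 1 (fibroblast) with 1 library left out, and 1 fibroblast gene with no filter (Dcn) and 1 on scaled counts (Col3a1). The count of all genes past the adjusted threshold was 10 as reported, 5 with the replicate block and 23 on scaled counts; the fits that each lack 1 library gave 12 to 23. Same-numbered deviations correlated at 0.0025, 0.0372 and 0.0433, and differently numbered ones at -0.0683 to 0.0328. All lay near 0, so these values cannot settle whether replicate numbers pair the libraries. With the replicate block no member passed, the 3 class medians were as reported, and Vtn had an unadjusted p of 0.0169. Low fragment numbers limit Dcn, Lum, Slc6a13, Foxd1 and Myh11.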
